A study of Mus musculus with 12 samples.

Results

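The data described here compare the livers of mice that received CCl4 together with a lentivirus that encodes a hairpin targeting lnc-LFAR1 (shLFAR1+CCl4) with the livers of mice that received CCl4 together with a control lentivirus (NC+CCl4), across all genes of a whole-genome Affymetrix mouse array. Arrays were chosen by their group label alone, which gave 6 of the 12 arrays of the series, 3 in each group. The other 6 arrays came from mice given olive oil with the control virus (NC) or with the knockdown virus (shLFAR1), again 3 in each group. They serve as the reference for liver that received oil and virus without CCl4. All mice were male Balb/c mice obtained at 8 weeks of age, and so were older when the livers were taken. CCl4 was a 5% solution by volume in olive oil, given into the peritoneum at 0.3 ml per kg with 3 injections a week. Virus was injected through a tail vein at 2 weeks and dosing continued for another 4 weeks. Every group therefore carried a lentivirus, and each group held 10 mice, of which 3 livers were hybridized per group. Which liver cells took up the virus was not measured here. lnc-LFAR1 is not named by any probe set, so the depth of the knockdown could not be read from the arrays, and a label such as shLFAR1+CCl4 names the virus that was given. For this experiment the paper reports silencing of lnc-LFAR1 by qRT-PCR, in extracts of whole liver and in primary hepatic stellate cells.

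CCl4 is activated by cytochrome P450 in hepatocytes around the central vein, and the damage is followed by hepatocyte division, entry of macrophages and activation of hepatic stellate cells. Activated stellate cells make collagens and other matrix proteins under the control of TGFβ, which signals through Smad2 and Smad3. lnc-LFAR1 is a liver-enriched long noncoding RNA. The study asked about its part in fibrosis and in TGFβ and Notch signaling, and the question behind this comparison was which genes of the injured liver differ when it is targeted.

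Values are log2 array intensities, 1 probe set per gene, for 18194 genes. On the first principal component, which held 56.3% of the variance, the oil arrays lay between -26.7 and -20.44 and the NC+CCl4 arrays at 43.03, 34.8 and 48.79. The shLFAR1+CCl4 arrays did not lie together: replicates 1 and 2 were at -6.8 and -9.66, near the oil arrays, and replicate 3 was within the NC+CCl4 range at 39.24. The array of NC+CCl4 replicate 1 differed from the rest in RNA integrity, with a 3′ minus 5′ difference of 1.31 log2 units for β-actin against 0.70 to 1.07 in the other arrays, and 0.72 for Gapdh against -0.21 to 0.03. For this reason values are given for each array, and counts are given with and without these arrays. Albumin (Alb), the main protein of hepatocytes, was at 14.38, 14.39 and 14.47 in NC+CCl4 and at 14.29, 14.27 and 14.46 in shLFAR1+CCl4, so hepatocyte RNA was abundant in every array.

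With limma on all 12 arrays, 53 of the 18194 genes passed an adjusted p of 0.05, which is 0.291%. Of these, 32 were higher in shLFAR1+CCl4 (0.176% of all genes) and 21 were lower (0.115%). At an unadjusted p under 0.05 there were 2578 genes. The higher genes ranged from 1.38-fold to 7.09-fold with a median of 1.88-fold, and the lower genes from 1.63-fold to 4.83-fold with a median of 2.29-fold. In each of the 53 genes the 3 arrays of one group lay wholly on one side of the other group. Non-overlap alone was common, at 7.19% of all genes in the higher and 5.11% in the lower direction. shLFAR1+CCl4 replicate 3 was the array of its group nearest to NC+CCl4 in 24 of the 32 higher and 14 of the 21 lower genes.

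**Figure D1:**
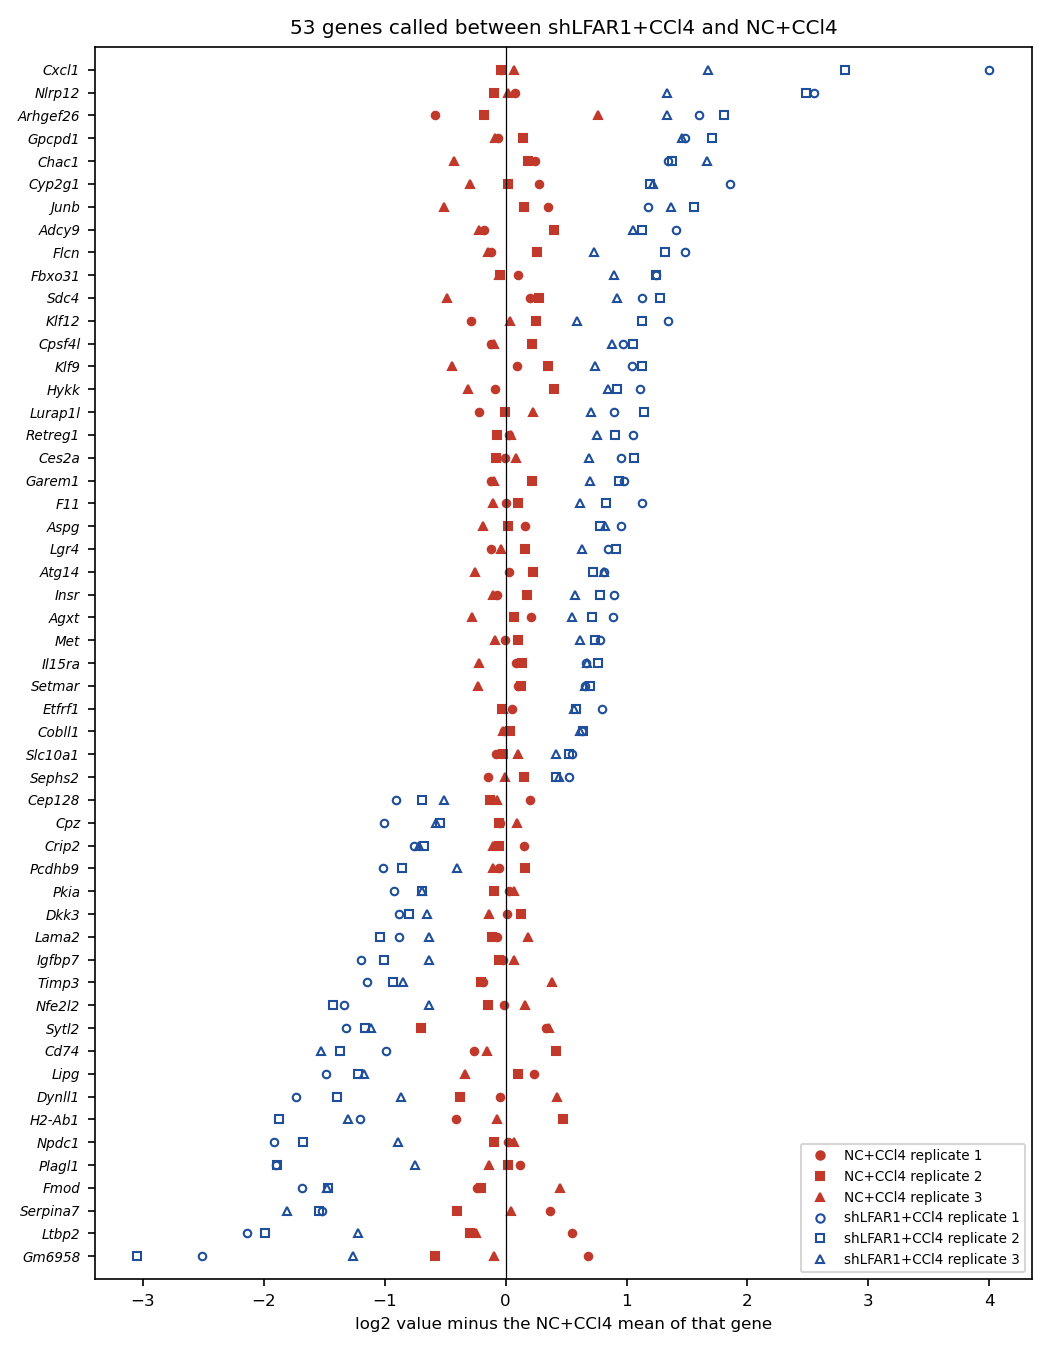
Log2 value of each CCl4 array minus the NC+CCl4 mean of the same gene (horizontal axis, log2 units) for the 53 called genes (rows), ordered by the difference between the groups. Filled red symbols are NC+CCl4 and open blue symbols shLFAR1+CCl4, with circles, squares and triangles for replicates 1, 2 and 3; the blue symbols of a gene lie on one side of all its red symbols, and the triangle is the blue symbol nearest to 0 in 24 of the 32 higher genes.

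The size of this set depended on single arrays. Without shLFAR1+CCl4 replicate 3 the test called 436 genes higher (2.4% of all genes) and 891 lower (4.9%), together 7.29%, all 53 among them. Without shLFAR1+CCl4 replicate 1 it called 4 higher and 0 lower, and without replicate 2 of that group 4 higher and 4 lower. Without NC+CCl4 replicate 1, the array with the larger 3′ to 5′ difference, 20 were higher and 14 lower, against 159 and 387 without NC+CCl4 replicate 2 and 16 and 11 without NC+CCl4 replicate 3. Leaving out any 1 of the 6 oil arrays gave 16 to 20 higher and 12 to 14 lower. Without both NC+CCl4 replicate 1 and shLFAR1+CCl4 replicate 3, a choice made after the data were seen, 663 were higher and 878 lower. Each of Ces2a, Fbxo31, Gpcpd1 and Nlrp12 was called whichever single CCl4 array was left out, and Crip2, Lipg and Pkia were called in 5 of these 6 fits. Oil arrays entered only through the pooled spread, and a fit to the 6 CCl4 arrays alone called 0 genes at the same threshold, with 1512 genes at an unadjusted p under 0.05. A block on the replicate number was fitted as an alternative, since replicates of the same number deviated together in the CCl4 groups. That pairing was read from these same values, with weak correlations of 0.126, 0.229 and 0.192, and no label states what a number shares. Calls gained with the block, here and below, therefore rest on an assumed pairing. With the block 132 genes were higher (0.726%) and 172 lower (0.945%), together 1.67%, and 51 of the 53 stayed called. The exceptions were Slc10a1, with an adjusted p of 0.0541 under the block, and Cep128, with 0.0594.

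**Figure D2:**
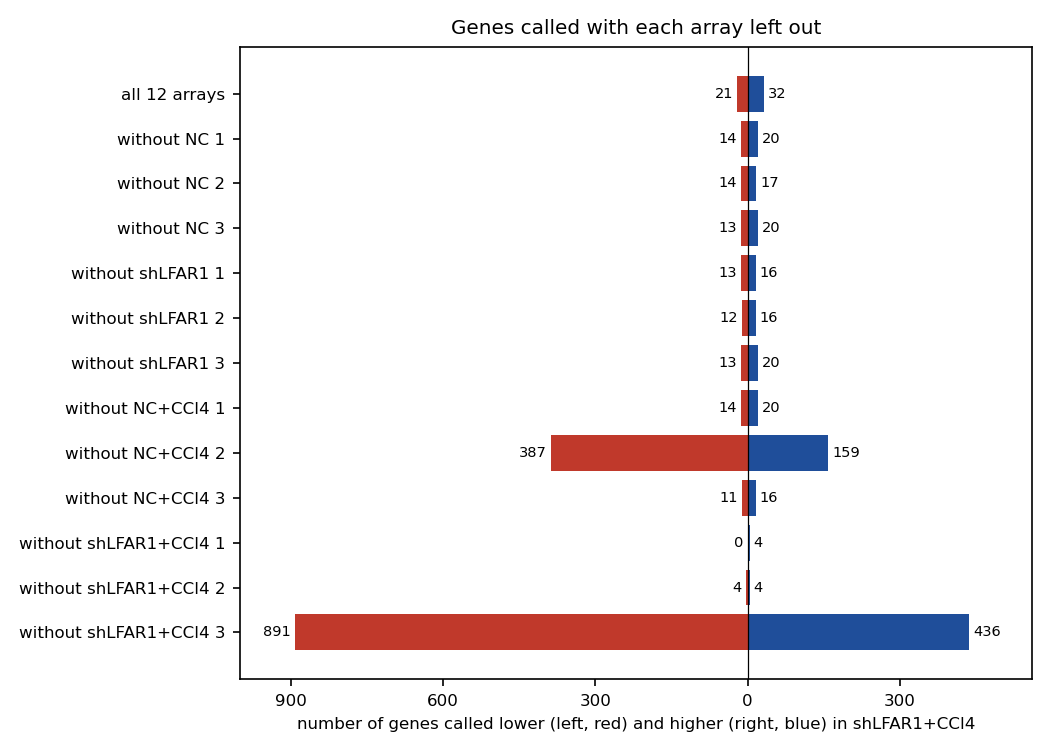
Number of genes called lower (left, red) and higher (right, blue) in shLFAR1+CCl4 than in NC+CCl4 by limma at an adjusted p under 0.05 (horizontal axis, number of genes), with all 12 arrays and with each array left out in turn (rows). The counts are 891 and 436 without shLFAR1+CCl4 replicate 3 and 0 and 4 without replicate 1 of that group.

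The called lower genes included Ltbp2, Fmod, Timp3, Lama2, Igfbp7, Cpz and Dkk3, which encode matrix or secreted proteins and were put together here by known function after the calls were seen. Ltbp2, a microfibril protein of the family of latent TGFβ binding proteins, stood at 6.43, 5.59 and 5.64 in NC+CCl4 replicates 1 to 3 and at 3.75, 3.90 and 4.66 in shLFAR1+CCl4, a log2 change of -1.78 ± 0.27 (SE) and 3.44-fold lower, with an adjusted p of 0.0186. Fmod, the collagen-binding proteoglycan fibromodulin, was at 6.28, 6.31 and 6.97 in NC+CCl4 and at 4.83, 5.05 and 5.04 in shLFAR1+CCl4, 2.92-fold lower (-1.54 ± 0.24, adjusted p = 0.0193). For Fmod all 3 shLFAR1+CCl4 arrays lay inside the range of the 6 oil arrays, 4.24 to 5.29, whereas in Ltbp2 replicates 2 and 3 were above all oil arrays, which reached 3.82. The 5 other probe sets of Fmod moved in the same direction.

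The promoters of Ltbp2 and Fmod are shown because these genes were lower together and encode matrix proteins, and those of Fbxo31 and Cxcl1 because these genes were higher. Each is the 250 bases before the transcription start in RefSeq on GRCm38.p6, printed 5′ to 3′ on the strand of the gene: Ltbp2 at chr12:84876492-84876741 (minus strand), Fmod at chr1:134037004-134037253 (plus strand), Fbxo31 at chr8:121578807-121579056 (minus strand) and Cxcl1 at chr5:90890995-90891244 (plus strand). Capitals mark CAGAC or its reverse complement GTCTG, a Smad-binding core with a flank.
Ltbp2: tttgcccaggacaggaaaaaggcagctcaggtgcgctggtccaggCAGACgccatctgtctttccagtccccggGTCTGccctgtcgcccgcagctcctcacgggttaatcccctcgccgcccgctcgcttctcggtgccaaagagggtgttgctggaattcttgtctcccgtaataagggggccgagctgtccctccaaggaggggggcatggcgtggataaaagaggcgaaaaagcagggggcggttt
Fmod: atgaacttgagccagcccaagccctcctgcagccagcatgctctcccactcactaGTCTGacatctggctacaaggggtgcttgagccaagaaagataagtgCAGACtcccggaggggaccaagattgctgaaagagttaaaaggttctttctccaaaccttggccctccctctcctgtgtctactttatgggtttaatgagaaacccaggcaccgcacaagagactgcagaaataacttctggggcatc
Fbxo31: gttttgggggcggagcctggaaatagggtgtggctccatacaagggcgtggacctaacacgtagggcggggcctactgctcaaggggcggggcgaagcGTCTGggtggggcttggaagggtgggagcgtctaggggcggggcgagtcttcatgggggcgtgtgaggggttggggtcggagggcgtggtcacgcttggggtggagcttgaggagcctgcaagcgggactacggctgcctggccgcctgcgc
Cxcl1: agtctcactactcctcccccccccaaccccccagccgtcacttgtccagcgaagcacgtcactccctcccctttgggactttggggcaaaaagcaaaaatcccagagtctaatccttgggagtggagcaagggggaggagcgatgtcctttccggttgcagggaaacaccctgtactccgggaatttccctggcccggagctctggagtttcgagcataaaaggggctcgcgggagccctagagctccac
Ltbp2 and Fmod held 2 such matches each, Fbxo31 held 1 and Cxcl1 held 0 in these bases, with a Cxcl1 match in the 50 bases after the start. These examples do not stand for their directions. The higher genes Chac1 and F11 also held 2 matches each, and the lower genes Timp3 and Igfbp7 held 0. In the window from 250 bases before to 50 bases after the start, CAGAC on either strand was present in 18 of the 28 matched promoters of higher genes (64.3%) and in 9 of the 14 matched promoters of lower genes (64.3%), against 49.7% of all 27025 promoters. The AP-1 motif TGANTCA was present in 2 of the 28 (7.14%) and 0 of the 14, against 7.93% of all promoters, and CCAAT in 7 (25%) and 2 (14.3%), against 37.9%. Matches of different motifs were counted separately, also where they overlapped. The shares describe letters in a window and no binding was measured.

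Timp3, a matrix-bound inhibitor of metalloproteinases, was at 7.05, 7.03 and 7.62 in NC+CCl4 and at 6.09, 6.31 and 6.39 in shLFAR1+CCl4, 1.97-fold lower (log2 change -0.98 ± 0.16, adjusted p = 0.0239). Lama2, the laminin α2 chain of basement membranes, went from 6.43, 6.39 and 6.69 to 5.62, 5.47 and 5.87, 1.81-fold lower with an adjusted p of 0.0353. Igfbp7, a secreted binding protein of insulin-like growth factors, was much brighter, at 11.27, 11.24 and 11.36 against 10.10, 10.28 and 10.66, and was 1.92-fold lower with an adjusted p of 0.0188. All 3 Igfbp7 arrays of shLFAR1+CCl4 still lay above the oil arrays, which reached 9.99, and 1 of the 2 other Igfbp7 probe sets did not move the same way (log2 change 0.05). Cpz, an extracellular carboxypeptidase, and Dkk3, a secreted protein of the Dickkopf family, were dimmer than the median gene, with log2 changes of -0.71 and -0.78 and adjusted p of 0.0432 and 0.0157.

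The fibrillar and network collagens did not reach the threshold: 0 of 15 measured members were called, while 14 had a log2 change below 0, against 8569 of all 18194 genes. The median was -0.88 against 0.01 over all genes. For this and each later list, called members stand against 0.176% of all genes called higher and 0.115% called lower. The arrays of the groups did not overlap in 6 of the 15, all lower, against 5.11% of all genes. Col1a2, a chain of type I collagen, was at 11.46, 11.50 and 11.12 in NC+CCl4 and 8.70, 9.31 and 10.69 in shLFAR1+CCl4, with a log2 change of -1.79 ± 0.37 and an adjusted p of 0.0743 that became 0.0498 with the replicate block. Col3a1, type III collagen, was at 12.02, 12.29 and 11.96 and 9.39, 9.90 and 11.41, -1.86 and an adjusted p of 0.0838, or 0.045 with the block. In both genes replicate 3 of shLFAR1+CCl4 lay between the 2 other arrays of its group and the NC+CCl4 arrays. Col1a1, the partner chain of type I collagen, was at 5.34, 5.46 and 8.15 in shLFAR1+CCl4 against 8.79, 8.50 and 7.86, so replicate 3 lay within the NC+CCl4 arrays (adjusted p = 0.125). With the block, 5 collagens were called, all lower (Col1a2, Col3a1, Col6a2, Col6a3 and Col14a1), against 0.945% of all genes, and without shLFAR1+CCl4 replicate 3 the number was 9, against 4.9%. Replicate 3 lay near NC+CCl4 on the first component, so leaving it out raises such counts. Without replicate 1 or 2 of shLFAR1+CCl4, 0 and 4 of all genes were called lower.

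Of 28 measured proteoglycans, microfibril and adhesive proteins, Fmod was the called one, 8 did not overlap and were lower, against 5.11% of all genes, and the median log2 change was -0.36. Sparc, a secreted collagen-binding glycoprotein, was at 10.56, 10.85 and 10.88 and 8.81, 9.15 and 10.51, -1.27 (adjusted p = 0.105, with the block 0.0458), and 1 of its 2 other probe sets had a log2 change of 0.03. Of 29 crosslinking enzymes, proteases and inhibitors, Timp3 was called, 9 did not overlap and were lower, against the same 5.11%, and the median was -0.45. Mmp2, a gelatinase of stromal cells, was at 9.22, 9.05 and 8.93 in NC+CCl4 and 6.90, 7.13 and 8.54 in shLFAR1+CCl4, with a log2 change of -1.55 and an adjusted p of 0.0838. Timp1, an inhibitor of metalloproteinases, overlapped between the groups, at 5.35, 6.37 and 5.51 and 4.30, 5.25 and 6.03. Of the 19 basement membrane genes measured, Lama2 was called and 4 did not overlap and were lower, again against 5.11%, among them Col4a2, a type IV collagen chain, at 9.55, 9.20 and 9.11 and 7.49, 7.57 and 8.95 (adjusted p = 0.0856).

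Of 28 measured genes of TGFβ ligands, latent binding proteins, receptors and Smads, Ltbp2, listed by its family, was the called one. Of all genes 0.115% were called lower. The list median was -0.28, and the groups did not overlap in 5 lower and 1 higher members, against 5.11% and 7.19% of all genes. Tgfb1, the ligand itself, was at 5.31, 5.26 and 4.81 and 4.78, 4.71 and 5.26 and overlapped. Tgfbr1 was at 8.52, 9.01 and 8.94 and 8.27, 8.52 and 8.75, also overlapping, and Tgfbr2 at 8.46, 8.41 and 8.78 and 7.01, 7.04 and 8.72, where replicates 1 and 2 of shLFAR1+CCl4 were lower and replicate 3 was within the NC+CCl4 arrays. The receptor-activated factors Smad2 and Smad3 had log2 changes of -0.01 and -0.29, with adjusted p of 0.982 and 0.372. Smad6, an inhibitory Smad, was at 6.40, 5.98 and 6.25 and 5.41, 5.16 and 5.64 without overlap, with an adjusted p of 0.0887. Among 17 Notch receptors, ligands and targets 0 were called and the median was -0.04. Notch2 and Notch3 had log2 changes of -0.04 and -0.06, the target Hes1 was at 8.23, 6.91 and 7.97 and 7.05, 7.26 and 6.97, and the ligand Jag1 was at 5.62, 5.55 and 6.40 and 5.34, 5.03 and 5.24 (adjusted p = 0.196). Over the 23 measured genes that the study itself followed by PCR, 0 were called, and 5 did not overlap and were lower, against 5.11% of all genes. The block called Acta2, Col1a2 and Col3a1, all lower, against 0.945% of all genes. The list joins genes that the paper measured in liver with genes it measured in primary stellate cells, such as Col3a1, Col4a5 and Mmp10. This list was chosen by the study and is not taken as independent evidence of direction.

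Stellate cell markers were lower on the whole in replicates 1 and 2. Of 20 measured, 0 were called and the median change was -0.39 log2 units. Per array the list median, relative to the NC+CCl4 mean, was -0.54, -0.46 and -0.06 in shLFAR1+CCl4 replicates 1, 2 and 3. Acta2, smooth muscle α-actin of activated stellate cells, was at 7.11, 7.83 and 7.99 and 6.21, 6.75 and 7.22. Its groups overlapped, yet each shLFAR1+CCl4 array was below the NC+CCl4 array of the same number, and the adjusted p was 0.137 without and 0.0278 with the replicate block. Its 2 other probe sets, with mean levels of 2.89 and 3.57, went the other way, with log2 changes of 0.14 and 0.23 that were not called. Pdgfrb, the receptor for platelet-derived growth factor on these cells, was at 8.99, 8.71 and 8.42 and 7.23, 7.25 and 8.61 (adjusted p = 0.194). Of the other defining stellate markers, Lrat was lower without overlap (log2 change -0.83, adjusted p = 0.128), whereas Des changed little (-0.09, adjusted p = 0.815). In whole liver, fewer cells of a type and less RNA per cell cannot be told apart.

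H2-Ab1 and Cd74, which encode the β chain of an MHC class II molecule and the invariant chain that accompanies it, were lower. H2-Ab1 was at 9.10, 9.98 and 9.44 in NC+CCl4 and 8.30, 7.63 and 8.20 in shLFAR1+CCl4, 2.75-fold lower (log2 change -1.46 ± 0.23, adjusted p = 0.0215). Cd74 was at 8.77, 9.44 and 8.87 and 8.04, 7.66 and 7.50, 2.45-fold lower (-1.29 ± 0.20, adjusted p = 0.0215). In these genes replicate 3 was not the array nearest to NC+CCl4: in Cd74 it was the lowest of its group and in H2-Ab1 it lay between the others. Both genes stayed above all 6 oil arrays, which reached 6.75 for H2-Ab1 and 7.02 for Cd74. H2-Aa, the α chain that pairs with H2-Ab1, was at 9.04, 10.11 and 9.71 and 8.66, 7.99 and 8.23 with an adjusted p of 0.0608. Across the 17 measured genes of class II presentation 2 were called lower, against 0.115% of all genes, and 6 did not overlap and were lower, against 5.11%. A log2 change below 0 was seen in 15, against 8569 of all 18194 genes, and the median was -0.45.

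Macrophages carry class II molecules in liver, together with dendritic and B cells. The class II list had medians relative to the NC+CCl4 mean of -0.62, -0.75 and -0.11 in shLFAR1+CCl4 replicates 1, 2 and 3. As a list, replicate 3 was therefore nearest to NC+CCl4, unlike in H2-Ab1 and Cd74. Ctss, on both the class II and the macrophage list, was at 10.88, 11.90 and 11.53 in NC+CCl4 and 9.72, 9.57 and 11.43 in shLFAR1+CCl4. Of 28 macrophage markers 0 were called, and the list median relative to NC+CCl4 was -1.24, -1.05 and 0.09 in replicates 1, 2 and 3. Of these markers, 24 had a log2 change below 0, against 8569 of all 18194 genes, and the highest change was 0.78. Clec4f, a defining macrophage marker, changed by -0.03, from 9.02, 8.49 and 7.52 to 8.62, 8.23 and 8.08. Csf1r, the receptor for macrophage colony-stimulating factor, was at 10.78, 11.48 and 10.84 and 9.69, 9.56 and 10.77 (adjusted p = 0.113). Gpnmb, a glycoprotein of lipid-laden macrophages, was at 8.96, 10.15 and 9.67 and 6.15, 6.23 and 10.65, so replicate 3 held the highest value of all 6 arrays. The mean log2 level of the 28 markers was 7.78 to 8.56 in NC+CCl4 and 6.98, 6.88 and 8.18 in shLFAR1+CCl4. Of 20 lymphocyte markers 0 were called and the median was -0.04, with mean levels of 4.2 to 4.51 in NC+CCl4 and 4.08 to 4.57 in shLFAR1+CCl4. Among 23 defining markers of liver cell types 0 were called, or 1, Acta2, with the block, and the part that cell numbers played in the class II genes was not tested.

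**Figure D3:**
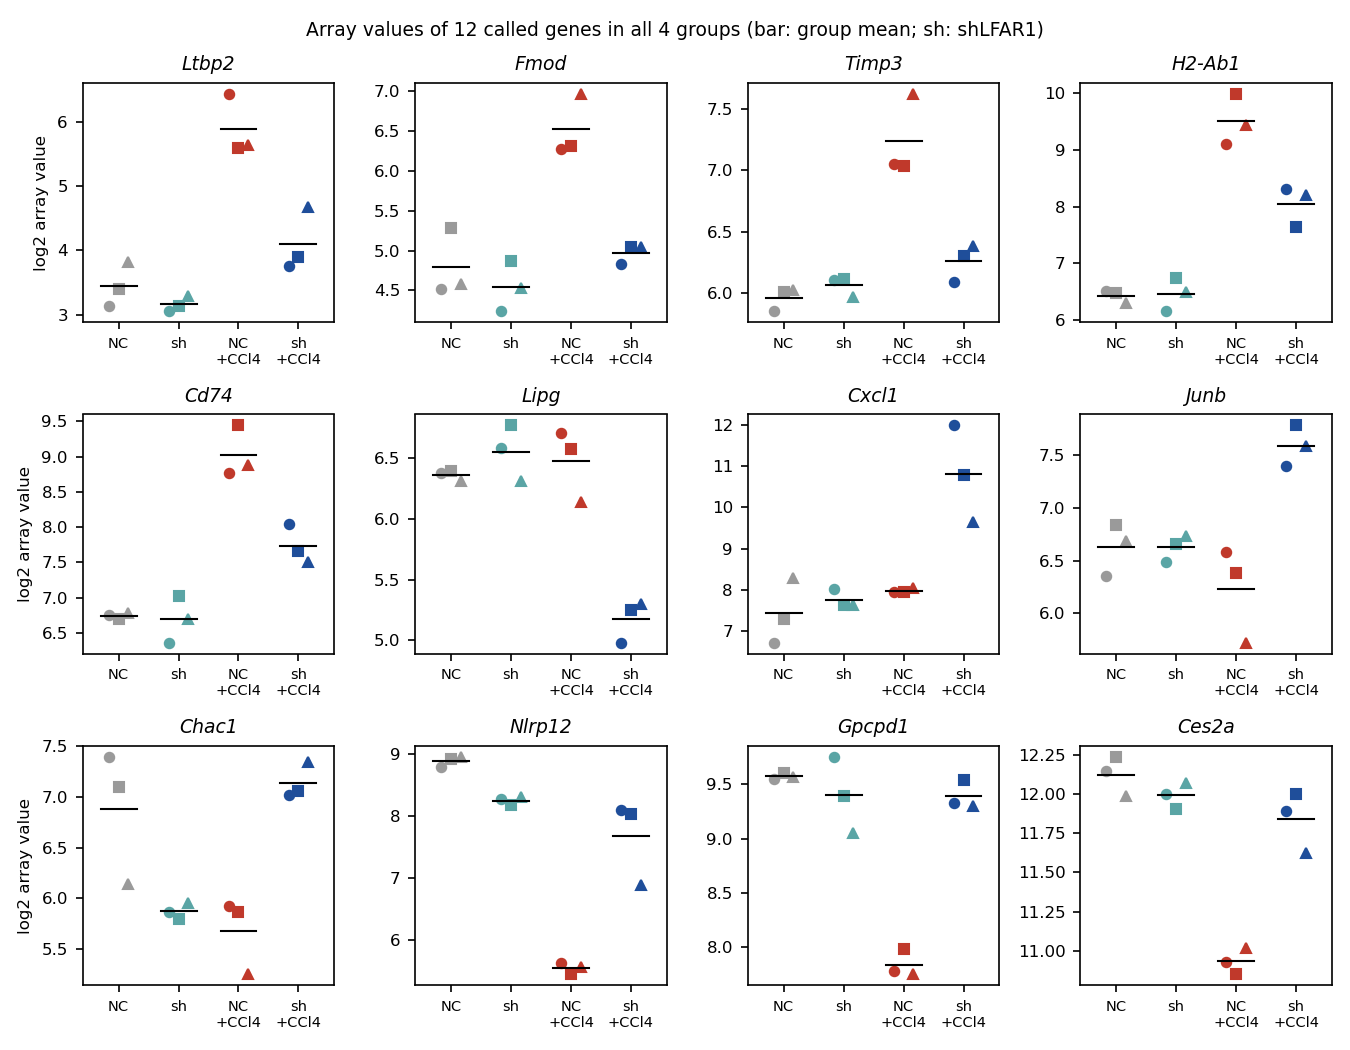
Log2 array value (vertical axis, a separate scale in each panel) of 12 called genes in the groups NC, shLFAR1 (written sh), NC+CCl4 and shLFAR1+CCl4. Circles, squares and triangles are replicates 1, 2 and 3 and bars are group means; Fmod and Timp3 in shLFAR1+CCl4 lie at or near the oil groups, H2-Ab1 and Cd74 between the oil groups and NC+CCl4, and Cxcl1 and Junb above all other groups.

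The largest change of all called genes was that of Cxcl1, a chemokine that attracts neutrophils. Its values were nearly identical in NC+CCl4, at 7.94, 7.95 and 8.05, and spread from 9.65 to 11.98 in shLFAR1+CCl4, with 11.98, 10.79 and 9.65 in replicates 1, 2 and 3. The difference was 7.09-fold (log2 change 2.83 ± 0.47, adjusted p = 0.0317). NC+CCl4 lay inside the range of the oil arrays, 6.72 to 8.29, and every shLFAR1+CCl4 array lay above it. Both other probe sets of Cxcl1 had the same sign. Among the 15 measured neutrophil granule genes and chemokines Cxcl1 was the called one, against 0.176% of all genes called higher, and the median change was -0.02. Lcn2, lipocalin of neutrophils and injured hepatocytes, was at 10.79, 12.19 and 12.32 and 9.26, 8.48 and 12.22, overlapping.

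Junb, a subunit of AP-1, was at 6.58, 6.38 and 5.72 in NC+CCl4 and 7.40, 7.79 and 7.59 in shLFAR1+CCl4, 2.58-fold higher (1.37 ± 0.21, adjusted p = 0.0186) and above all oil arrays, which reached 6.84. Other immediate early genes varied between arrays of 1 group, so Egr1 ranged from 7.34 to 8.92 in NC+CCl4 and from 8.76 to 10.29 in shLFAR1+CCl4, and Fos from 5.36 to 8.27 in shLFAR1+CCl4. Of 24 such genes Junb was called, 3 did not overlap and were higher, against 7.19% of all genes, and the median was 0.05. Chac1, a glutathione-degrading enzyme induced through ATF4, was at 5.92, 5.86 and 5.25 and 7.02, 7.05 and 7.35, 2.76-fold higher with an adjusted p of 0.0493, close to the threshold. Among the oil arrays Chac1 was at 7.40, 7.10 and 6.14 with the control virus and 5.87, 5.80 and 5.95 with the knockdown virus. Herpud1, an endoplasmic reticulum protein of the unfolded protein response, was at 10.10, 11.18 and 10.29 and 11.30, 11.57 and 11.96, with an adjusted p of 0.0887 that became 0.0466 with the block. Nfe2l2, the transcription factor of the antioxidant response, moved the other way, from 9.85, 9.71 and 10.02 to 8.52, 8.43 and 9.23, 2.19-fold lower (adjusted p = 0.0206), while its second, dimmer probe set had a log2 change of 0.12.

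In 21 of the 32 higher genes NC+CCl4 lay below all 6 oil arrays and shLFAR1+CCl4 overlapped them. The share of all genes with this pattern was not counted, so the pattern is not read as a trait of the called genes. The comparison with oil uses the same NC+CCl4 arrays as the call itself, so it describes levels and adds no evidence for them. Gpcpd1, a phosphodiesterase of glycerophosphocholine, had the smallest adjusted p, 0.00355: 7.78, 7.99 and 7.75 in NC+CCl4, 9.33, 9.54 and 9.30 in shLFAR1+CCl4 and 9.05 to 9.75 over the oil arrays, 2.93-fold higher (1.55 ± 0.15). Nlrp12, a receptor of the NOD-like family, was at 5.63, 5.45 and 5.57 and 8.09, 8.03 and 6.88, 4.35-fold higher (2.12 ± 0.24, adjusted p = 0.00537), and below all oil arrays in each of the 6. Ces2a, a carboxylesterase of the liver, was at 10.93, 10.85 and 11.02 and 11.89, 12.00 and 11.63, 1.87-fold higher (adjusted p = 0.00537). Fbxo31, the substrate-binding part of a ubiquitin ligase, was at 6.79, 6.64 and 6.63 and 7.92, 7.92 and 7.58, 2.18-fold higher (adjusted p = 0.00537). In these genes the NC+CCl4 arrays differed from each other by less than the gap to the nearest shLFAR1+CCl4 array.

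Genes of secreted proteins, transport and metabolism followed. F11, coagulation factor XI, was at 9.14, 9.25 and 9.04 and 10.27, 9.97 and 9.76, 1.81-fold higher (adjusted p = 0.0349), and of 24 measured coagulation and complement genes it was the called one, while 7 did not overlap and were higher, against 7.19% of all genes, and the median was 0.20. Agxt, the peroxisomal aminotransferase that removes glyoxylate, was at 11.10, 10.97 and 10.62 and 11.79, 11.61 and 11.44, 1.64-fold higher (adjusted p = 0.0307), the called one of 20 urea cycle and amino acid enzymes, of which 7 did not overlap and were higher, against the same 7.19%. Slc10a1, the bile acid uptake transporter of the sinusoidal membrane, was at 11.60, 11.66 and 11.78 and 12.23, 12.20 and 12.10, 1.41-fold higher (adjusted p = 0.0398). The shLFAR1+CCl4 arrays overlapped the oil arrays, which were at 12.06 to 12.37 for Slc10a1 and 11.37 to 11.59 for Agxt. Cyp2g1, a cytochrome P450, was at 4.84, 4.59 and 4.27 and 6.42, 5.76 and 5.78, 2.68-fold higher (adjusted p = 0.029), with both groups below the oil arrays. It was the called one of 36 P450 genes measured, against 0.176% of all genes called higher. Aspg, an asparaginase, was at 9.39, 9.25 and 9.04 and 10.18, 10.01 and 10.05 (adjusted p = 0.0157) and lay above the oil arrays with the knockdown virus and below them with the control virus.

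Receptors and regulators among the higher genes are described next, gathered by known function after the calls were seen. Insr, the insulin receptor, was at 8.67, 8.91 and 8.64 and 9.63, 9.52 and 9.31, 1.68-fold higher (adjusted p = 0.0188). Met, the receptor for hepatocyte growth factor, was at 8.85, 8.96 and 8.77 and 9.64, 9.60 and 9.48, 1.64-fold higher (adjusted p = 0.0141), and exceeded all oil arrays, which reached 9.41. Lgr4, a receptor for R-spondins that strengthens Wnt signaling, was at 8.53, 8.82 and 8.61 and 9.50, 9.56 and 9.29, 1.74-fold higher (adjusted p = 0.013). For Insr and Lgr4 the oil arrays overlapped shLFAR1+CCl4. The other, much dimmer Lgr4 probe set had a log2 change of -0.06. Klf9, a zinc finger factor that responds to glucocorticoids, was at 10.76, 11.01 and 10.22 and 11.71, 11.79 and 11.40, 1.96-fold higher (adjusted p = 0.035), and its 6 other probe sets moved the same way. Sdc4, a heparan sulfate proteoglycan of the cell surface, was at 10.46, 10.54 and 9.78 and 11.39, 11.54 and 11.18, 2.16-fold higher (adjusted p = 0.0212). Flcn and Atg14, which act in nutrient sensing and autophagy, changed by 1.18 and 0.78 (adjusted p = 0.0408 and 0.0354), and Retreg1, a receptor for autophagy of the endoplasmic reticulum, by 0.91 (adjusted p = 0.0157).

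The remaining higher genes were Arhgef26 (1.58), Adcy9, an adenylate cyclase (1.20), Klf12 (1.02), Cpsf4l (0.97), Hykk, a kinase of hydroxylysine (0.96), Lurap1l (0.92), Garem1 (0.87), Il15ra, the α chain of the interleukin-15 receptor (0.70), Setmar (0.67), Etfrf1 (0.65), Cobll1 (0.63) and Sephs2, an enzyme of selenoprotein synthesis (0.46), all as log2 changes. Their adjusted p lay between 0.0141 and 0.0408. Other probe sets existed for 21 of the 32 higher genes, and 37 of these 39 probe sets had the same sign, the exceptions being 1 each of Lgr4 and Lurap1l. Some of the 37 changed little, such as that of Cobll1, with a log2 change of 0.10.

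Lipg, endothelial lipase, differed from the other lower genes. It was at 6.71, 6.57 and 6.13 in NC+CCl4 and 4.98, 5.25 and 5.30 in shLFAR1+CCl4, 2.45-fold lower (-1.29 ± 0.16, adjusted p = 0.012), while the oil arrays were at 6.31 to 6.77. NC+CCl4 thus overlapped the oil arrays and shLFAR1+CCl4 lay below all of them. In 14 of the 21 lower genes, by contrast, NC+CCl4 was above all oil arrays and shLFAR1+CCl4 overlapped them. The share of all genes with that pattern was not counted. A second Lipg probe set had the same sign and the other, dimmer one had a log2 change of 0.02. Serpina7, thyroxine-binding globulin, was at 10.21, 9.44 and 9.89 and 8.33, 8.30 and 8.04, 3.08-fold lower (adjusted p = 0.0186). Dynll1, a dynein light chain, was at 11.16, 10.83 and 11.63 and 9.48, 9.81 and 10.34, 2.52-fold lower (adjusted p = 0.0255). Gm6958 had the largest decrease, 8.13, 6.86 and 7.35 against 4.93, 4.40 and 6.18 (4.83-fold, adjusted p = 0.0354). Plagl1, an imprinted zinc finger factor, was at 8.69, 8.59 and 8.44 and 6.68, 6.69 and 7.83 (adjusted p = 0.0408), but its 2 other probe sets, both dim, had log2 changes of 0.02 and 0.05. Npdc1 (-1.49), Sytl2 (-1.20), Pkia, an inhibitor of protein kinase A (-0.77), Pcdhb9 (-0.76), Crip2 (-0.72) and Cep128 (-0.70) completed the lower genes, with adjusted p from 0.012 to 0.0445. Over all lower genes 21 of 26 other probe sets had the same sign, a count that includes probe sets with little change. The other Cep128 probe sets, all dim, had log2 changes of -0.12, -0.16 and -0.05.

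Of the lists described, that of mitosis had the median furthest from 0. Of 31 measured genes of mitosis and G2 to M 0 were called and 30 had a log2 change below 0, against 8569 of all 18194 genes. The groups did not overlap in 4, all lower, against 5.11% of all genes, and the median change was -2.24. Cdk1, the kinase that drives entry into mitosis, was at 9.88, 7.28 and 9.72 in NC+CCl4 and 5.83, 6.01 and 7.79 in shLFAR1+CCl4 (adjusted p = 0.104, with the replicate block 0.0388). Ccna2, cyclin A2, was at 9.39, 7.09 and 8.64 and 4.93, 4.84 and 7.44 (adjusted p = 0.0957, with the block 0.045). In both genes NC+CCl4 replicate 2 was the lowest of its group, below shLFAR1+CCl4 replicate 3, while replicates 1 and 2 of shLFAR1+CCl4 were at the level of oil-treated liver. The list median within pairs of the same number was -4.05, -1.05 and -1.28. With the block 13 of the 31 were called, all lower, against 0.945% of all genes, and without shLFAR1+CCl4 replicate 3 the number was 24, against 4.9% of all genes. Replicate 3 lay near NC+CCl4, so leaving it out raises such counts. Without replicate 1 or 2 of shLFAR1+CCl4, 0 and 4 of all genes were called lower.

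Of 26 measured genes of DNA replication 0 were called, or 9 lower with the block, against 0.945% of all genes, and the median was -0.96. Mcm5, a subunit of the replicative helicase, was at 8.93, 6.90 and 10.02 and 5.09, 5.08 and 8.22 (adjusted p = 0.18, with the block 0.0278), and Rrm1, a subunit of ribonucleotide reductase, at 8.29, 6.85 and 8.56 and 6.45, 6.25 and 7.50 (0.192 and 0.0387), while a dim Rrm1 probe set had a log2 change of 0.03. Cdkn1a, the inhibitor p21, was at 9.38, 6.97 and 8.29 and 5.38, 5.51 and 7.41, the same order of arrays as Cdk1 (adjusted p = 0.111).

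**Figure D4:**
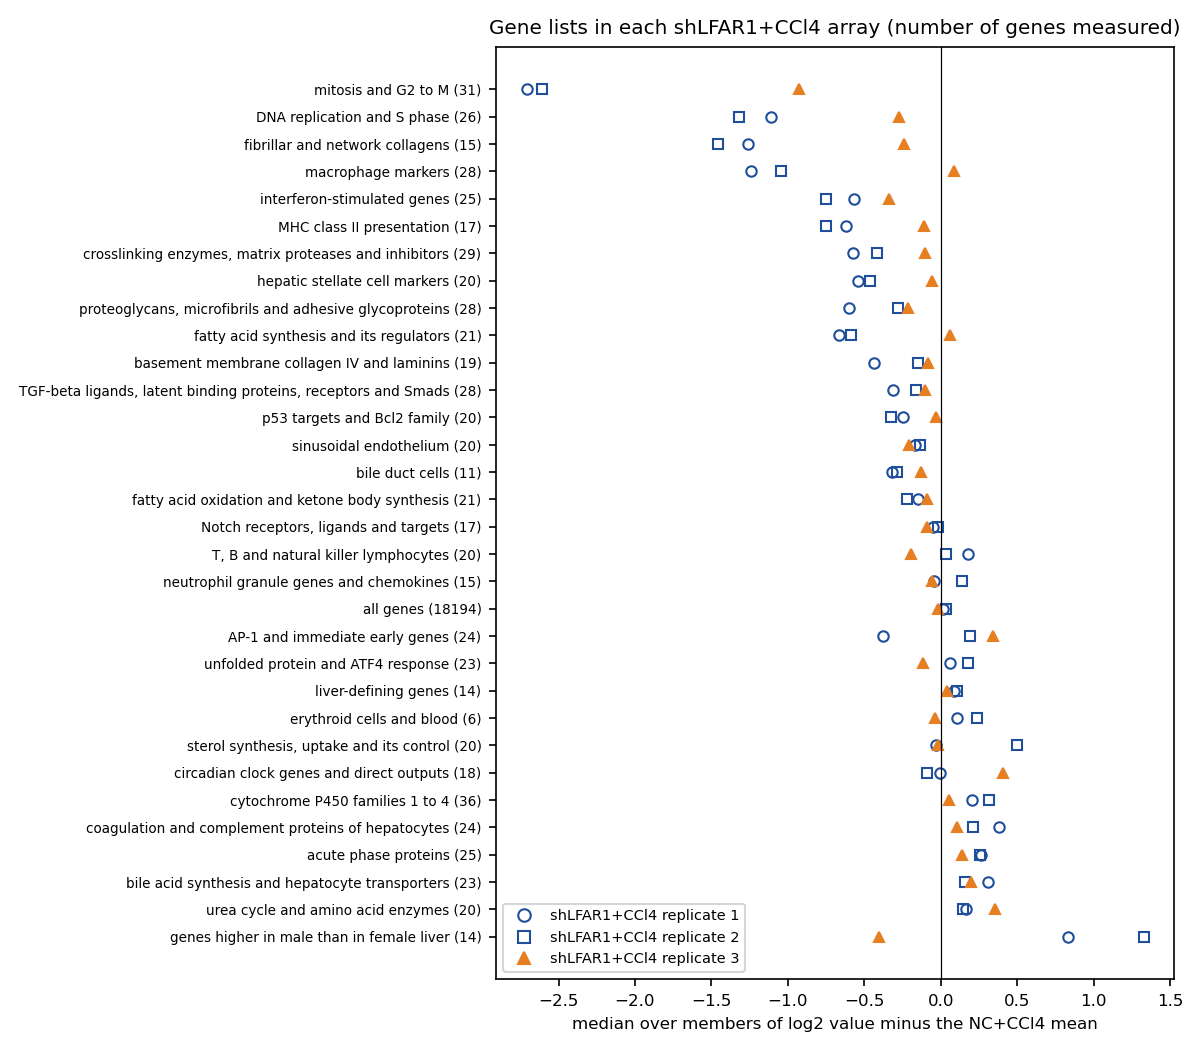
Median over the members of each gene list of the log2 value minus the NC+CCl4 mean of the gene (horizontal axis, log2 units), for shLFAR1+CCl4 replicates 1 (circle), 2 (square) and 3 (orange triangle). The number of genes measured is in brackets and lists are ordered by their median change; for mitosis the medians were -2.71, -2.61 and -0.93, for macrophage markers -1.24, -1.05 and 0.09, and for all genes all 3 were near 0.

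In some metabolic genes replicate 3 of shLFAR1+CCl4 stood apart from its group. Slco1a1, an organic anion transporter of male liver, was at 5.09, 5.41 and 4.85 in NC+CCl4 and 9.82, 10.26 and 4.76 in shLFAR1+CCl4, and Hsd3b5, a steroid dehydrogenase of male liver, at 4.62, 4.44 and 3.81 and 8.15, 10.00 and 3.93. Both were far above every NC+CCl4 array in replicates 1 and 2 and at the level of NC+CCl4 in replicate 3. Their log2 changes were 3.17 and 3.07 (adjusted p = 0.175 and 0.195), or 4.92 and 4.79 without replicate 3. Leaving out this array, which was at the NC+CCl4 level, raises both changes. Cyp7b1, which hydroxylates oxysterols on the way to bile acids, was at 8.37, 8.82 and 6.77 and 11.03, 11.55 and 7.64, and Glul, glutamine synthetase of the hepatocytes around the central vein, at 9.62, 10.34 and 8.78 and 11.46, 11.59 and 9.30. Their adjusted p was 0.255 and 0.3, and 0.0281 and 0.0343 with the block, and each shLFAR1+CCl4 array exceeded the NC+CCl4 array of its number. Among 14 genes with male-biased expression in liver 0 were called and the list medians were 0.83, 1.33 and -0.41 in replicates 1, 2 and 3. In Scd2, a fatty acid desaturase, replicate 3 lay within the NC+CCl4 arrays, with 7.40, 7.20 and 8.34 and 5.07, 5.23 and 7.34 (adjusted p = 0.138, with the block 0.0204), whereas in Pdk4, a kinase that inhibits pyruvate dehydrogenase, it lay with its group, at 8.84, 7.92 and 7.32 and 6.47, 6.07 and 6.67 (0.0954 and 0.0379). In the clock genes Nr1d2 and Dbp replicate 3 held the highest value of the 6 CCl4 arrays. Nr1d2, a repressor of the circadian clock, was at 8.12, 9.65 and 8.88 and 9.77, 10.11 and 10.40 (adjusted p = 0.0956, with the block 0.0338), and the clock output Dbp ranged from 6.18 to 8.30 and from 6.96 to 10.56. The hour at which livers were taken was not analysed here.

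Between shLFAR1 and NC 0 of 18194 genes passed (0%), the smallest adjusted p was 0.785, and 504 genes had an unadjusted p under 0.05. This comparison shares no array with that in CCl4-treated liver. Of the 32 genes called higher with CCl4, 8 were also higher in shLFAR1 than in NC, with a median log2 change of -0.06, and of the 21 called lower 8 were also lower, with a median of 0.07. In oil-treated liver the log2 change was -1.01 for Chac1 and -0.64 for Nlrp12, opposite in sign to their changes with CCl4. The difference between the effects of the virus with CCl4 and with oil passed for 4 genes (0.022%), which were Nlrp12 (2.76, adjusted p = 0.0174), Gpcpd1 (1.72, adjusted p = 0.0174), Fbxo31 (1.51, adjusted p = 0.0174) and Ces2a (1.03, adjusted p = 0.0394). For the other 49 called genes a difference between CCl4 and oil was not shown. With the replicate block 0 genes passed for this difference, and without shLFAR1+CCl4 replicate 3 there were 581. Replicate 3 lay near NC+CCl4, so leaving it out raises this count. Without replicate 1 or replicate 2 of that group 0 genes passed.

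**Figure D5:**
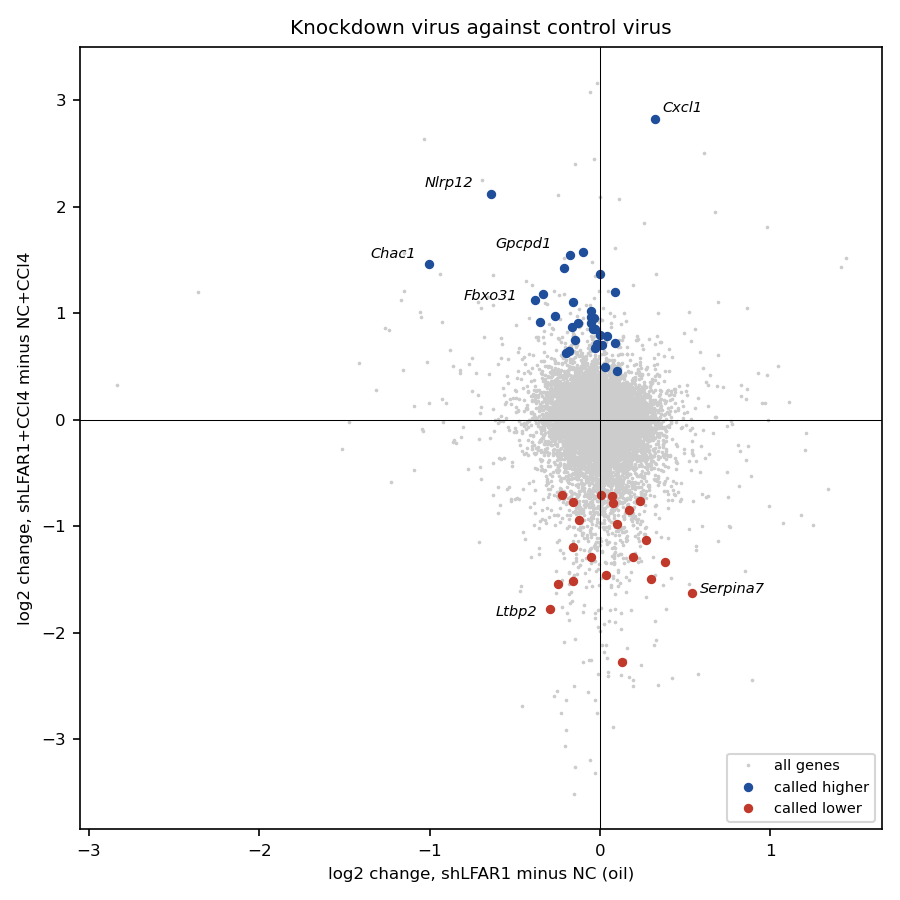
Log2 change of every gene between shLFAR1 and NC in oil-treated liver (horizontal axis) and between shLFAR1+CCl4 and NC+CCl4 (vertical axis); grey points are all genes, blue points the 32 called higher and red points the 21 called lower with CCl4. The axes share no array, the called genes were chosen on the vertical axis, and on the horizontal axis 8 of 32 blue and 8 of 21 red points have the same sign as on the vertical one.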

How the data were processed

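Total RNA of mouse liver was hybridized to 12 arrays in 4 groups of 3, and groups were taken from the sample labels, which call the replicates biological. The table deposited by the authors holds log2 values already summarized and normalized, by a method not given in the sources used here, and gives no detection calls. Low values may therefore be background, with understated changes. The number of arrays limits the precision. Of 45101 probe sets, 64 were controls, and the platform's annotation gave 1 symbol to 34958, several to 932 and no symbol to 9211. For each of 18194 genes the probe set of highest mean over the 12 arrays was used.

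A model of the 4 groups was fitted with lmFit and eBayes with an intensity trend (limma 3.58.1, R 4.3.3) on all arrays, with 8 residual degrees of freedom. Tests were two-sided, adjusted by Benjamini-Hochberg over all genes and called at an adjusted p under 0.05, and errors are standard errors. The pooled spread can be too small here, since a typical gene had an SD of 0.131 (NC) or 0.106 (shLFAR1) with oil and of 0.172 (NC+CCl4) or 0.143 (shLFAR1+CCl4) with CCl4, as medians over genes. The code was tested on simulated data. Lists are described by counts and medians without a test. Genes were named where called without overlap and above the median level (20 highest, 20 lowest, 10 of smallest adjusted p), as called members of a list, as genes the study measured by PCR, and as the brightest and the 2 most changed members of each list. Called genes that the rule leaves out, such as those below the median level, are named too, so that all 53 are accounted for. Collagens called with the block and the defining markers were named after their values were seen. The comparison, lists and rule were chosen with earlier results of these data known.

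To see whether replicate numbers pair the CCl4 arrays, each array's deviation from its group mean was correlated with those of the other group. Same-numbered arrays gave 0.126, 0.229 and 0.192, and arrays of different number -0.234 to 0.0932, so a block on the number, separate for CCl4 and oil arrays, was fitted as an alternative. This pairing comes from the data, since no label states what a number shares. Alternatives were the block, the 6 CCl4 arrays alone, no trend, robust fitting, array weights, quantile normalization, brighter genes only and the mean of all probe sets. Others were an equal-variance t-test between the CCl4 groups, the methods' threshold (unadjusted p with a fold over 1.6) and leaving out each array. The methods give that threshold for the arrays without a test, and name Student's t-test in the general statistics. Promoters came from RefSeq (GRCm38.p6). Python 3.11.15 drew the figures.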

Additional observations from a re-analysis of the deposited data

Results flagged for a closer look

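The effect of the knockdown virus differed between CCl4-treated and oil-treated liver for 4 genes by the interaction test in limma, all with a larger effect under CCl4. The difference of the log2 changes was 2.76 for Nlrp12 (adjusted p = 0.0174), from -0.64 with oil to 2.12 with CCl4. It was 1.72 for Gpcpd1 (adjusted p = 0.0174), from -0.17 to 1.55. It was 1.51 for Fbxo31 (adjusted p = 0.0174), from -0.38 to 1.13, and 1.03 for Ces2a (adjusted p = 0.0394), from -0.13 to 0.90. In each of these genes the 3 shLFAR1+CCl4 arrays were above the 3 NC+CCl4 arrays. None of the 4 passed without NC replicate 1 or 2, shLFAR1 replicate 2, or shLFAR1+CCl4 replicate 1 or 2, or with the replicate block, so the difference rests on several single arrays. Groups of 3 arrays are too small for a test of single outlying samples.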

How the results depend on the processing

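All 53 called genes kept their sign under every alternative in which they were tested. The counts of genes called higher and lower were 30 and 23 without the intensity trend, 35 and 26 with robust fitting, 32 and 21 after quantile normalization, and 22 and 17 with the mean of all probe sets. They were 45 and 17 of 9097 among genes above the median level, and 47 and 31 with the 3′ to 5′ difference of β-actin as a covariate, which was added after the data were seen. Larger changes came from the replicate block (132 and 172), array weights (359 and 561) and the 6 CCl4 arrays alone (0 and 0). The t-test between the CCl4 groups gave 0 and 0 after Benjamini-Hochberg adjustment. At an unadjusted p under 0.05 it gave 1106 genes, and at the methods' threshold 71 and 105. With limma the methods' threshold gave 164 and 543. Leaving out both NC+CCl4 replicate 1 and shLFAR1+CCl4 replicate 3 gave 663 and 878, and was added after the data were seen. Leaving out 1 array gave 4 to 436 higher and 0 to 891 lower. The replicate block changed the calls of 2 of the 53 genes and gave a call to 18 of the named genes not called without it, Col6a2, Col6a3 and Col14a1 among them, and changed no other call of a named gene. The interaction was called for 4 genes, against 3 without the trend, 4 with robust fitting, 393 with array weights, 7 after quantile normalization, 10 among brighter genes, 2 with the mean of all probe sets, 0 with the replicate block, 776 without both arrays, 4 with the β-actin covariate and 0 to 581 with 1 array left out. In shLFAR1 against NC 0 genes were called in each of these fits, with 240 to 1719 at an unadjusted p under 0.05.

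Smad2, Notch2 and Notch3, with changes near 0, and Dbp, with a change of 1.43 that was not called, reversed in sign under some settings. Smad2 was at 0.02 with array weights, 0.05 after quantile normalization, 0.15 with the mean of all probe sets, 0.01 without NC+CCl4 replicate 2, 0.05 without shLFAR1+CCl4 replicate 3 and 0.05 without both arrays, and ranged from -0.06 to 0.05 with 1 array left out. Notch2 was at 0.09 with array weights, 0.05 with the mean of all probe sets, 0.12 without NC+CCl4 replicate 1, 0.07 without shLFAR1+CCl4 replicate 2 and 0.12 without both arrays, and ranged from -0.15 to 0.12 with 1 array left out. Notch3 was at 0.01 without NC+CCl4 replicate 2, in a range from -0.12 to 0.01. Dbp was at -0.04 without both arrays and ranged from 0.57 to 2.36 with 1 array left out. The causes were not tested. Gene values near the lower end of the scale may be background, and 3 arrays a group with 1 array apart limit what the comparison can resolve.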

Other observations

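Among the 10092 non-control probe sets to which no unique symbol was assigned, 0 were called higher and 1 was called lower in shLFAR1+CCl4. It is annotated to both H2-DMb1 and H2-DMb2, which load peptides onto MHC class II molecules. It was at 4.37, 4.56 and 4.47 in NC+CCl4 and at 3.28, 3.62 and 3.66 in shLFAR1+CCl4, a log2 change of -0.94 ± 0.12 (SE) with an adjusted p of 0.0163 in limma. The oil arrays were at 3.09 to 3.46.

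Metallothionein 2 (Mt2), which binds zinc and copper, was at 7.83, 9.44 and 9.96 in NC+CCl4 and at 11.53, 9.95 and 12.08 in shLFAR1+CCl4, with an adjusted p of 0.104. Apob, the structural protein of lipoproteins made by liver, was at 11.20, 12.41 and 12.09 and 13.17, 13.20 and 12.32 (adjusted p = 0.139). Ifi27l2a, an interferon-stimulated gene, was at 8.84, 9.19 and 8.11 and 6.51, 6.51 and 8.69 (adjusted p = 0.171), and Bst2, another such gene, at 10.70, 10.36 and 10.00 and 9.67, 9.60 and 9.77 without overlap (adjusted p = 0.0838). Of 25 interferon-stimulated genes 0 were called, 23 had a log2 change below 0, against 8569 of all 18194 genes, and the median was -0.60. The groups did not overlap in 3 of them, all lower, against 5.11% of all genes. Acot1, an acyl-CoA thioesterase, was at 7.91, 7.28 and 8.05 and 6.75, 6.52 and 6.82, with an adjusted p of 0.0662, or 0.0257 with the replicate block. Of 20 sinusoidal endothelial genes Lipg was the called one, and 6 did not overlap and were lower, against 5.11% of all genes, among them Fcgr2b, an Fc receptor, at 9.09, 9.48 and 9.13 and 8.65, 8.74 and 8.72 (adjusted p = 0.0947). Of 23 genes of the unfolded protein and ATF4 response Chac1 was the called one, and the median was 0.06.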
